A study of Mus musculus with 34 samples.

Results

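The 10 Notch pathway genes described here were the receptors *Notch1*, *Notch2*, *Notch3* and *Notch4*, the ligands *Jag1*, *Jag2* and *Dll4*, and the targets *Hes1*, *Hey1* and *Heyl*, taken by symbol from the 23509 genes of each count table. All 10 passed the filter on low counts that left 15644 genes for testing. Each was measured in whole kidneys of 34 mice on the C57BL6 background at postnatal day 28 (P28), in 3 groups. The *Pkd2*-KO mice, a rapidly cystic model of polycystic kidney disease whose genotype the labels spell Pdk2KO, carry floxed *Pkd2* alleles deleted by a Cre recombinase under *Pkhd1* control (Pkhd1/cre;*Pkd2* F/F), so that the gene is lost in tubule cells and not in the whole kidney. They were injected subcutaneously at P10, P11, P12 and P19, either with PBS (n = 11) or with 20 mg per kg of RGLS4326 (n = 11), a short modified oligonucleotide complementary to the seed of the microRNA miR-17. Untreated non-transgenic wildtype mice (UNT, n = 12) received no injection.

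Notch receptors are single-pass membrane proteins that bind Jagged and Delta-like ligands on a neighbouring cell. Ligand binding exposes the receptor to an ADAM protease and then to γ-secretase, which releases the intracellular domain. This fragment enters the nucleus, joins the DNA-binding protein RBPJ and a Mastermind coactivator, and switches on genes such as those of the Hes and Hey families of transcriptional repressors. In the kidney the pathway is known for its part in forming the proximal nephron, in the choice between principal and intercalated cells of the collecting duct, and in blood vessels, where *Notch4* and *Dll4* are mainly endothelial and *Notch3* and *Heyl* are prominent in pericytes and vascular smooth muscle.

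Each library held between 17603122 and 54981992 reads in genes, and the lowest count of any of the 10 genes in any library was 35, for *Hey1*. Levels are given as CPM, counts relative to the library total scaled by trimmed mean of M values (TMM) factors. The targeted gene, *Pkd2*, averaged 274 CPM in the UNT group (SD 34.4, n = 12), 160 in the PBS group (SD 32.2, n = 11) and 210 in the RGLS4326 group (SD 23.8, n = 11). Its log2 fold change in PBS-treated against UNT kidneys was -0.78 (SE 0.09, adjusted p = 1.4e-09), with no overlap. PBS replicate 9 stood apart on the second principal component of all tested genes, at 50.7 against 19.7 for the next PBS library, and was the lowest of its group in 7 of the 10 genes. UNT replicate 10 was the lowest of its group in 5 of them. Among all tested genes with a known exon length, those of 8000 bases or more had a median log2 fold change of 0.15 in RGLS4326-treated against PBS-treated kidneys and those under 2000 bases one of -0.15. In RGLS4326-treated against UNT kidneys the same medians were 0.15 and -0.16, and in PBS-treated against UNT kidneys 0.04 and -0.01. The 4 receptors span 8061 to 14232 exon bases and *Hes1* has 2037, so this trend is given beside the treatment results that it touches.

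Levels of different genes were compared per kb of exon, over the union of all annotated exons of a gene. The order of genes therefore also depends on which transcripts the annotation holds. In UNT kidneys the order was *Hes1* (15.5 CPM per kb ± 2.47, SD, n = 12), *Jag1* (8.91 ± 1.01), *Notch2* (6.42 ± 0.63), *Notch4* (6.25 ± 0.97), *Notch3* (5.10 ± 0.92), *Dll4* (3.91 ± 0.72), *Notch1* (3.08 ± 0.47), *Heyl* (1.78 ± 0.49), *Jag2* (1.74 ± 0.29) and *Hey1* (0.72 ± 0.12). *Notch2* and *Notch4*, and *Heyl* and *Jag2*, lay within each other's spread. In PBS-treated kidneys *Hes1* still led (23.1 ± 2.25), followed by *Jag1* (11.6 ± 1.70), *Notch2* (10.6 ± 1.48) and *Notch3* (9.89 ± 1.68), which were not separated by their spread. By mean level *Heyl* (6.08 ± 1.07) had moved above *Dll4* (5.23 ± 0.66) and *Notch1* (4.77 ± 0.71), and *Notch4* (4.25 ± 0.63) was the lowest receptor. The spreads of *Heyl*, *Dll4* and *Notch1* overlapped, as did those of *Notch1* and *Notch4*. *Jag2* (1.76 ± 0.18) and *Hey1* (0.67 ± 0.11) were last. RGLS4326-treated kidneys kept *Hes1* (19.6 ± 1.92) first. *Jag1* (12.2 ± 2.44), *Notch2* (11.0 ± 0.58) and *Notch3* (10.9 ± 0.84) followed, again not separated by their spread, and then *Heyl* (6.69 ± 0.80). *Dll4* (5.06 ± 0.59), *Notch4* (4.98 ± 0.56) and *Notch1* (4.89 ± 0.44) were level with each other.

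The comparison of PBS-treated with UNT kidneys asked how the pathway differs in polycystic kidneys. Of the 4 receptors, *Notch1*, *Notch2* and *Notch3* were higher in PBS-treated kidneys and *Notch4* was lower. *Notch3*, on chromosome 17 of GRCm38 (32120820 to 32166852, minus strand), ran from 23.2 CPM through a median of 42.9 to 49.5 in UNT mice and from 45.7 through 84.8 to 93.5 in PBS mice. Only the PBS mouse at 45.7, replicate 9, fell inside the UNT range. The log2 fold change of *Notch3* was 0.96 (SE 0.10, adjusted p = 4e-11), the largest among the receptors. *Notch2*, the receptor with a known part in proximal nephron development (chromosome 3, 98013527 to 98150361, plus strand), had 56.6, 71.9 and 75.7 CPM as lowest, median and highest values in UNT mice and 77.3, 120 and 132 in PBS mice. These 2 ranges did not overlap, and the log2 fold change was 0.72 (SE 0.07, adjusted p = 2.19e-12). *Notch1* (chromosome 2, 26457903 to 26516663, minus strand) ran from 30.02 through 45.0 to 51.6 CPM in UNT mice and from 43.2 through 68.4 to 79.1 in PBS mice. Again PBS replicate 9 alone overlapped with the UNT group, and *Notch1* rose by 0.63 on the log2 scale (SE 0.08, adjusted p = 2.06e-08).

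*Notch4*, the mainly endothelial receptor (chromosome 17, 34564268 to 34588503, plus strand), went the other way. Its level ran from 41.2 through 48.4 to 63.7 CPM in UNT mice and from 25.9 through 32.7 to 44.8 in PBS mice. Of the 11 PBS mice, 10 lay below every UNT mouse, and the log2 fold change was -0.56 (SE 0.08, adjusted p = 1.57e-07). With library totals in place of TMM factors it was -0.26 and still called. The direction was the same in each of 3 library sets, into which the restarting numbers of the deposited tables divide the libraries, with differences of mean log2 level of -0.54, -0.47 and -0.61. *Notch1* shares 7.5% and 2.91% of its exon bases with a pair of neighbouring transcripts, *Notch2* shares 5.02% with a neighbour and *Notch3* 6.03%. The overlap lies on the opposite strand for *Notch1* and *Notch3*, where the unstated strand setting of the counting matters, and on the same strand for *Notch2*, where no strand setting could separate the reads. *Notch4* has no such overlap.

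**Figure D1:**
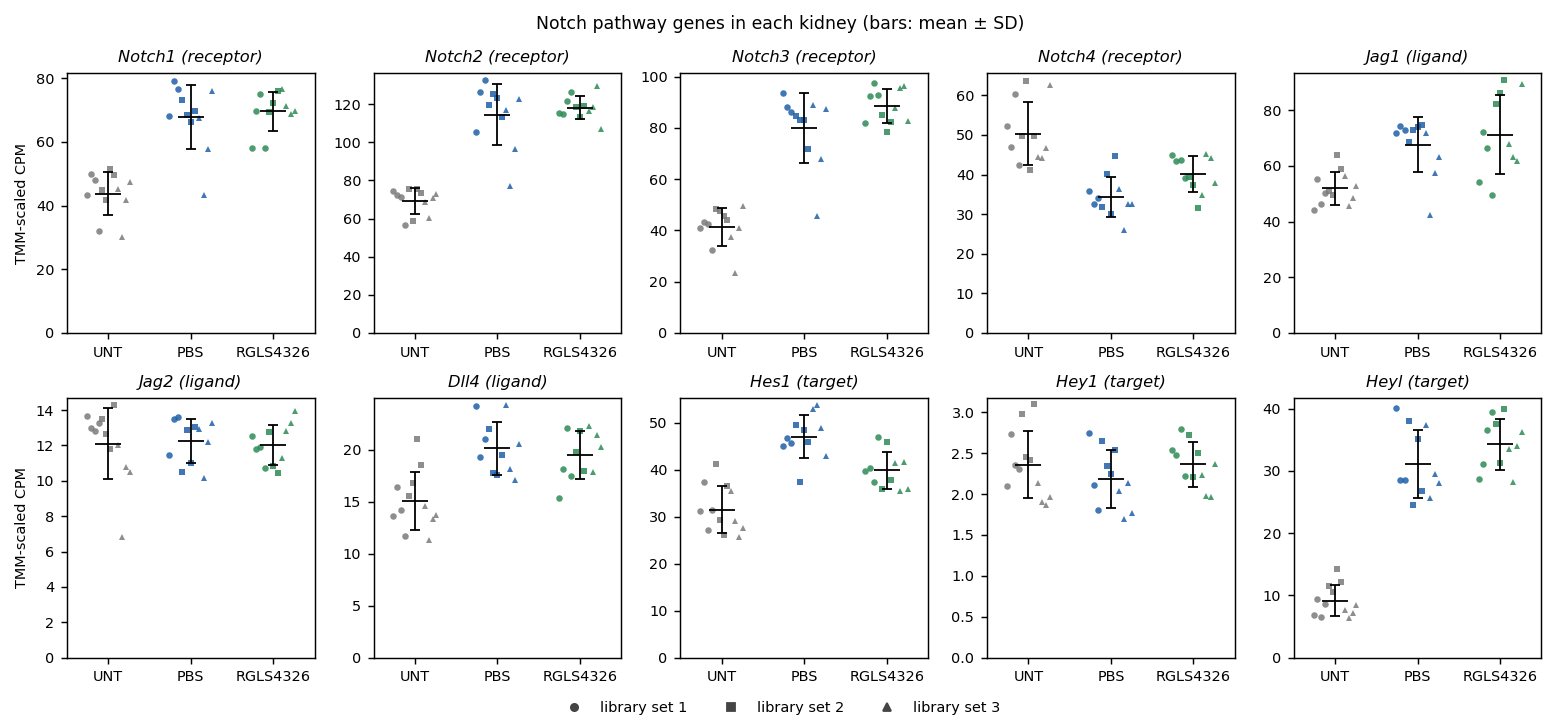
TMM-scaled CPM (vertical axes, from 0) of the 10 genes in 12 UNT, 11 PBS-treated and 11 RGLS4326-treated kidneys; each point is a mouse, marker shapes give the library set, and bars show the mean ± SD. *Notch1*, *Notch2*, *Notch3* and *Heyl* sit higher in both *Pkd2*-KO groups than in UNT kidneys and *Notch4* sits lower, while *Jag2* and *Hey1* lie at like levels in all 3 groups.

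Among the ligands, *Jag1* and *Dll4* were higher in PBS-treated than in UNT kidneys and *Jag2* did not pass the test. *Jag1*, the Jagged ligand affected in Alagille syndrome (chromosome 2, 137081456 to 137116644, minus strand), ran from 44.1 through 50.6 to 63.9 CPM in UNT mice and from 42.4 through 71.8 to 74.7 in PBS mice. PBS replicate 9 was below every UNT mouse, 8 PBS mice were above all of them, and the log2 fold change was 0.38 (SE 0.09, adjusted p = 0.000369). *Jag1* was not called in a fit of library set 3 alone (0.21, adjusted p = 0.274). *Dll4*, a Delta-like ligand of endothelial cells (chromosome 2, 119325784 to 119335962, plus strand), had 11.3, 14.4 and 21.0 CPM as lowest, median and highest values in UNT mice and 17.1, 19.4 and 24.3 in PBS mice. The groups overlapped, with 4 PBS mice above all UNT mice, and the log2 fold change was 0.42 (SE 0.09, adjusted p = 5.2e-05). It was small in library set 2, where the difference of mean log2 level was 0.09 against 0.59 and 0.56 in the other 2 sets, and a fit of that set alone gave an adjusted p of 0.634. *Jag2* (chromosome 12, 112907819 to 112929776, minus strand) ran from 6.83 through 12.7 to 14.3 CPM in UNT mice and from 10.2 through 12.9 to 13.6 in PBS mice. The ranges were nested, and the log2 fold change of 0.02 had an interval of -0.15 to 0.18 at 2 SE (adjusted p = 0.86). With library totals in place of TMM factors *Jag2* was called, at 0.30 (adjusted p = 0.00339).

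*Jag1* and *Dll4* are also the only members whose longest annotated 3′UTR holds a match to the miR-17 seed, the stretch that RGLS4326 was made to pair with. The search was for GCACTTT and CACTTTA on the transcript strand, which overlap as the 8-base match GCACTTTA. Such a match was found in 21.2% of the 14193 tested genes with an annotated 3′UTR, and the 8-base match in 4.26%. The mature microRNA (RefSeq, GRCm38.p6) is shown with bases 2 to 8, the seed, in capitals, and the sites are shown with the matched bases in capitals within 30 bases of 3′UTR sequence.
mmu-miR-17-5p: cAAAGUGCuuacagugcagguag
*Jag1* site: cttgatagcatCACTTTAagtttaagacac
*Dll4* site: tgttcctactcCACTTTAagttccatgggg
The *Jag1* site lies at chr2:137082108-137082114 on the minus strand, from position 910 of a 3′UTR of 1568 bases. The *Dll4* site lies at chr2:119335887-119335893 on the plus strand, from position 1254 of 1329, close to the annotated end. Both match seed positions 2 to 7 and have an A after them, and neither has the additional pairing at position 8. In RGLS4326-treated against PBS-treated kidneys neither gene passed the test, with log2 fold changes of 0.08 for *Jag1* (interval -0.12 to 0.27 at 2 SE, adjusted p = 0.548) and -0.05 for *Dll4* (-0.23 to 0.13, adjusted p = 0.693). *Jag1* was called higher in a fit of library set 2 alone (0.27, adjusted p = 0.0475), while it was at -0.26 in set 1 alone. Opposite to *Dll4*, the transcript *Gm14207* covers 5.56% of its exon bases and had 13 to 95 counts per library.

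Of the targets, *Heyl* showed the largest change of the 10 genes and *Hes1* rose as well, while *Hey1* did not pass the test. *Heyl*, a Hey-family repressor (chromosome 4, 123233556 to 123249875, plus strand), ran from 6.44 through 8.49 to 14.3 CPM in UNT mice and from 24.5 through 28.5 to 40.0 in PBS mice. The ranges were far apart, and the level was 3.40-fold higher in PBS-treated kidneys (log2 fold change 1.76, SE 0.12, adjusted p = 4.61e-16). *Hes1*, the most widely used target of the pathway (chromosome 16, 30064384 to 30067796, plus strand), had 25.6, 30.3 and 41.1 CPM as lowest, median and highest values in UNT mice and 37.4, 46.8 and 53.8 in PBS mice. Of the PBS mice, 10 were above every UNT mouse, and the log2 fold change was 0.58 (SE 0.07, adjusted p = 6.11e-09). PBS replicate 9, low in the receptors, was the highest PBS mouse for *Hes1*. *Hey1* (chromosome 3, 8663359 to 8667256, minus strand) was the least abundant member, from 1.86 through 2.33 to 3.10 CPM in UNT mice and from 1.70 through 2.14 to 2.74 in PBS mice. These ranges overlapped widely, and the log2 fold change was -0.11 (interval -0.31 to 0.09 at 2 SE, adjusted p = 0.29).

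In all, 7 of the 10 genes were higher and 1 was lower in PBS-treated kidneys. This stands against 82.1% of all tested genes called in this comparison, 43.1% higher and 39.0% lower, so being called is itself common here. All 8 calls held whichever library was left out, PBS replicate 9 included. The median log2 fold change of the 10 genes was 0.50 against 0.04 for all tested genes. The groups did not overlap for *Notch2* and *Heyl*, 2 of the 10 genes, beside 42.5% of all tested genes. With library totals in place of TMM factors the median of all tested genes moved up by 0.29, and 8 of the 10 genes were then higher and 1 was lower, beside 8970 higher and 4099 lower of all 15644 tested genes. Whole-kidney RNA cannot tell a change in RNA per cell from a change in the number of cells of a type, and this holds for every level given here.

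Within the *Pkd2*-KO mice, the comparison of RGLS4326 with PBS asked how these levels differ after treatment. No group given a control oligonucleotide is among these mice. Inhibition of miR-17 can therefore not be told apart from dosing with an oligonucleotide. *Hes1* was lower and *Notch4* was higher in RGLS4326-treated kidneys, and the other 8 genes did not pass the test. The 2 called genes of 10 stand beside 33.8% of all tested genes, 15.3% higher and 18.5% lower. *Hes1* ran from 35.4 through 39.8 to 47.0 CPM in RGLS4326-treated mice, against 37.4, 46.8 and 53.8 in PBS mice. The ranges overlapped, all 11 RGLS4326-treated mice lay below the PBS mean, and 3 lay below every PBS mouse. The log2 fold change of *Hes1* was -0.24 (SE 0.07, adjusted p = 0.0163), and its level of 39.9 CPM ± 3.92 (n = 11) was between the 31.5 ± 5.04 (n = 12) of UNT and the 47.0 ± 4.59 (n = 11) of PBS-treated kidneys. *Notch4* ran from 31.6 through 39.4 to 45.2 CPM in RGLS4326-treated mice, against 25.9, 32.7 and 44.8 in PBS mice. Here too the ranges overlapped, with 10 of 11 mice above the PBS mean. *Notch4* rose by 0.23 on the log2 scale (SE 0.08, adjusted p = 0.0345), to 40.1 CPM ± 4.54 from 34.2 ± 5.04, and stayed below the 50.4 ± 7.83 of UNT kidneys.

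Both calls were modest. After the trend on exon length was taken out of each library, a fit chosen after the data were seen, *Hes1* had a log2 fold change of -0.13 (adjusted p = 0.096) and *Notch4* one of 0.14 (adjusted p = 0.163), and 0 of the 10 genes were called while 30.4% of all genes in that fit were. Neither was called when the fit took as a covariate the share of reads outside annotated genes, which ranged from 5.18% to 8.995% in PBS and from 4.94% to 12.0% in RGLS4326 libraries (log2 fold change -0.17, adjusted p = 0.234 for *Hes1* and 0.23, adjusted p = 0.18 for *Notch4*). In that fit 89 of all tested genes were called, and the value of *Notch4* was as large as without the covariate. *Hes1* was lower in each of the 3 library sets, by differences of mean log2 level of -0.16, -0.18 and -0.35, and it kept its call whichever library was left out. It was called in no set alone, where edgeR called 54 of all genes in set 1, 4065 in set 2 and 0 in set 3 (3421, 6361 and 2826 genes had an unadjusted p under 0.05). *Notch4* differed by 0.32 and 0.34 in library sets 1 and 3 and by -0.01 in set 2, and lost its call when any of 9 libraries was left out (PBS replicates 2, 4, 6, 9 and 11 and RGLS4326 replicates 1, 2, 3 and 9), with adjusted p-values of up to 0.0612.

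**Figure D2:**
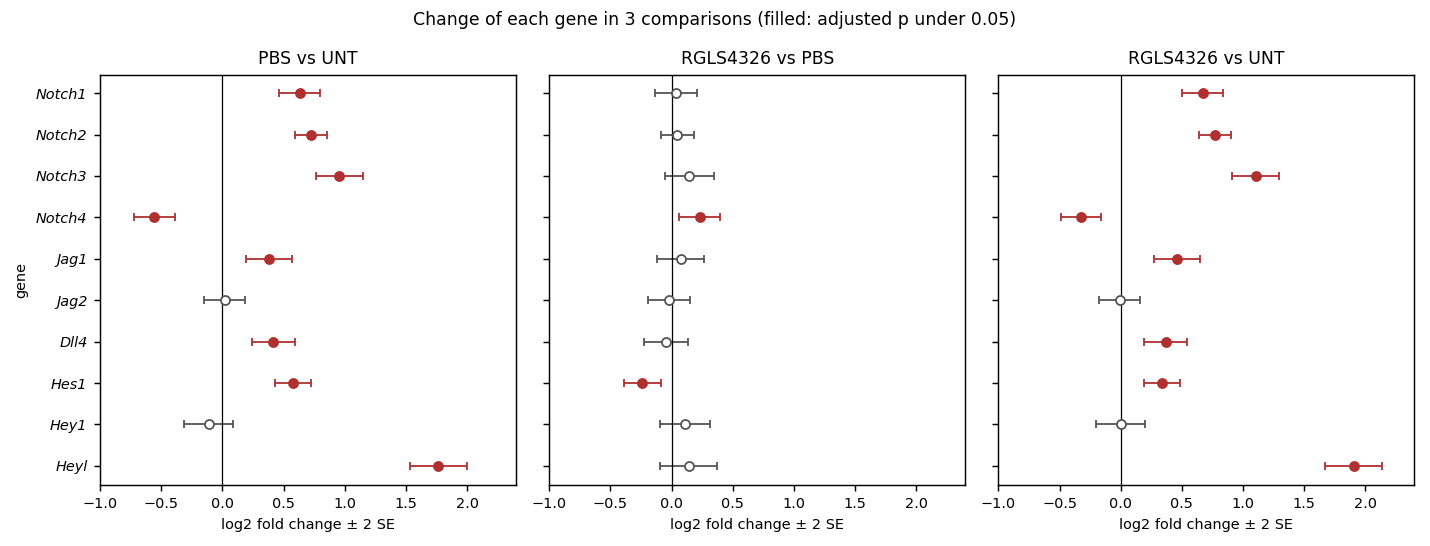
Log2 fold change of the 10 genes (horizontal axes, bars of 2 SE) in PBS-treated against UNT, RGLS4326-treated against PBS-treated and RGLS4326-treated against UNT kidneys; filled red points have an adjusted p under 0.05. The left and right panels show 8 called genes each, with *Heyl* at 1.76 and 1.90, and the middle panel shows only *Hes1* at -0.24 and *Notch4* at 0.23.

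For the genes that did not pass the test, several intervals reached past the size of the 2 called changes. *Notch1* had a log2 fold change of 0.04 (interval -0.14 to 0.21 at 2 SE), *Notch2* one of 0.05 (-0.09 to 0.18) and *Notch3* one of 0.15 (-0.05 to 0.34). With the exon length trend taken out, *Notch1* was at -0.13, *Notch2* at -0.08 and *Notch3* at 0.06, none of them called. *Heyl* had 0.14 (-0.09 to 0.37), *Hey1* 0.11 (-0.09 to 0.32) and *Jag2* -0.02 (-0.20 to 0.15). Their adjusted p-values lay between 0.244 for *Notch3* and 0.837 for *Jag2*. For *Jag1* the RGLS4326-treated mice ran from 49.5 through 67.9 to 90.9 CPM, a wider range than the 42.4 to 74.7 of the PBS mice. No member had groups without overlap, which held for 0.0639% of all tested genes.

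Against UNT kidneys the RGLS4326-treated kidneys had 7 genes higher and 1 lower, beside 77.7% of all tested genes called, 40.8% higher and 36.9% lower. Log2 fold changes were 1.90 for *Heyl* (SE 0.12, adjusted p = 8.54e-17), 1.10 for *Notch3* (SE 0.10, adjusted p = 1.48e-12), 0.77 for *Notch2* (SE 0.07, adjusted p = 5.68e-13) and 0.67 for *Notch1* (SE 0.08, adjusted p = 7.61e-09). With the exon length trend taken out, the values were 0.98 for *Notch3*, 0.59 for *Notch2* and 0.44 for *Notch1*, all still called. For *Heyl* and these 3 receptors every RGLS4326-treated mouse lay above every UNT mouse, as the groups did without overlap for 36.7% of all tested genes. *Jag1* was higher by 0.46 (adjusted p = 4.27e-05), *Dll4* by 0.37 (adjusted p = 0.000282) and *Hes1* by 0.34 (adjusted p = 8.61e-05). In library set 2 alone *Dll4* (0.12, adjusted p = 0.389) and *Hes1* (0.24, adjusted p = 0.195) were not called. *Notch4* was lower, at -0.33 on the log2 scale (SE 0.08, adjusted p = 0.000532), with 6 of 11 mice below all UNT mice. With library totals alone its log2 fold change was -0.02 (adjusted p = 0.78), in a fit that moved the median of all tested genes up by 0.30 and called 9 of the 10 genes higher and 0 lower, and 9148 higher and 3471 lower of all 15644 tested genes. In library set 3 alone it was also not called (-0.29, adjusted p = 0.11). *Jag2* had -0.01 (interval -0.18 to 0.16 at 2 SE) and *Hey1* had 0.00 (-0.20 to 0.20), and both were called with library totals alone, at 0.29 (adjusted p = 0.00558) and 0.30 (adjusted p = 0.0141). The 2 comparisons with UNT share the same 12 mice, and the *Pkd2*-KO comparisons share the PBS mice, so their values are not independent.

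The opposite courses of the receptors changed their make-up. Of the summed CPM per kb of the 4 receptors, *Notch4* made up 30.01% ± 3.36 in UNT kidneys, 14.5% ± 2.06 in PBS-treated and 15.7% ± 1.47 in RGLS4326-treated kidneys. The lowest UNT mouse was at 23.9% and the highest *Pkd2*-KO mouse at 18.6%, so these ranges did not overlap. *Notch3* went from 24.3% ± 2.37 in UNT kidneys to 33.4% ± 2.34 in PBS-treated and 34.4% ± 1.10 in RGLS4326-treated kidneys, again with no overlap between 26.7%, the highest UNT mouse, and 29.6%, the lowest PBS mouse. *Notch2* made up 31.0% ± 2.61, 36.0% ± 1.70 and 34.5% ± 1.31, and *Notch1* held 14.7% ± 1.33, 16.1% ± 0.70 and 15.4% ± 1.56. The shares use only ratios within a library and do not depend on its scaling, but they do depend on the exon lengths used. The low PBS replicate 9 and UNT replicate 10 had summed receptor levels of 19.1 and 16.1 CPM per kb, the lowest of their groups, beside means of 29.5 ± 3.95 in PBS-treated and 20.8 ± 2.35 in UNT kidneys. Among the targets, *Heyl* made up 9.97% ± 2.63, 20.3% ± 2.56 and 24.8% ± 2.76 of the summed level in UNT, PBS-treated and RGLS4326-treated kidneys, and *Hes1* 86.0% ± 2.89, 77.4% ± 2.77 and 72.5% ± 2.97. *Heyl* has 5113 exon bases and *Hes1* has 2037, and the exon length trend was not taken out of these shares.

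**Figure D3:**
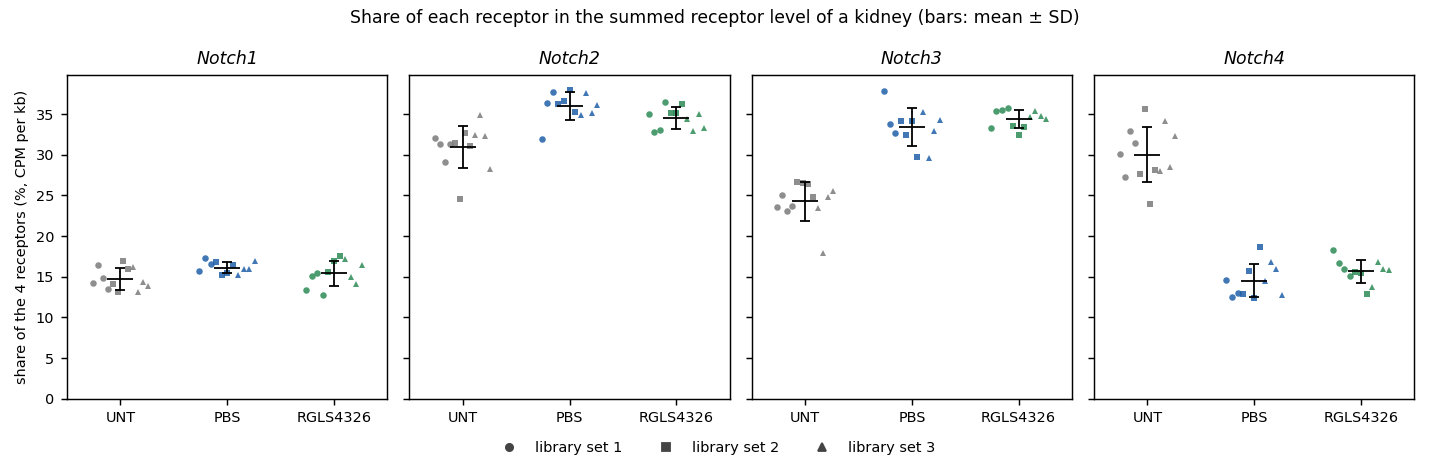
Share of each receptor in the summed CPM per kb of the 4 receptors (vertical axis, %, from 0) in each UNT, PBS-treated and RGLS4326-treated kidney; points are mice, marker shapes give the library set, and bars show the mean ± SD. *Notch4* is at 30.01% in UNT and near 15% in both *Pkd2*-KO groups, and *Notch3* moves from 24.3% to 33.4% and 34.4%.

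The rest of the pathway was described by 48 further genes in 6 lists, of which 44 passed the filter. *Dll3*, *Dner*, *Hes3* and *Hes5* did not, with at most 16 counts in any library. In PBS-treated against UNT kidneys 29 of the 44 were higher and 10 were lower, with a median log2 fold change of 0.41 against 0.04 for all tested genes. The 39 called genes stand beside the 82.1% of all tested genes called, 43.1% higher and 39.0% lower. With library totals alone 32 were higher and 6 were lower, and of all 15644 tested genes 8970 were higher and 4099 lower. Of the nuclear complex that acts with the receptor fragment 8 of 9 genes were higher and 0 lower, and the corepressor gene *Spen* was not called (log2 fold change 0.17). *Rbpj*, the DNA-binding factor, ran from 32.6 through 35.4 to 42.6 CPM in UNT mice and from 40.8 through 57.6 to 62.0 in PBS mice. PBS replicate 9, at 40.8, was the only PBS mouse within the UNT range, and the log2 fold change of *Rbpj* was 0.65 (SE 0.06, adjusted p = 1.08e-12). Of the proteases and γ-secretase subunits 6 of 9 were higher and 1 was lower. Of the enzymes that glycosylate the receptors 4 of 5 were higher and 1, *Rfng*, was lower.

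The 3 largest rises were in genes of the list that moves or degrades pathway proteins. *Neurl1a*, a ubiquitin ligase of the Neuralized family that acts on ligands, rose 13.1-fold, from 1.38 CPM ± 0.32 in UNT (n = 12) to 18.1 ± 4.29 in PBS-treated kidneys (n = 11). *Dtx4*, a Deltex ubiquitin ligase, rose 6.23-fold, from 13.6 ± 4.35 to 85.1 ± 13.6, and *Numbl*, a relative of the Notch antagonist Numb, rose 3.76-fold, from 5.56 ± 1.21 to 20.9 ± 2.53. None of these 3 genes, picked for the size of their rise, had overlapping groups, and the same held for 42.5% of all tested genes. Their adjusted p-values were 1.64e-23, 4.59e-20 and 3.79e-18. All 13 genes of this list were called, 8 higher and 5 lower, where 82.1% of all tested genes were. The largest falls were in *Hey2*, a further Hey-family repressor, from 3.56 ± 0.32 to 1.59 ± 0.51 CPM (log2 fold change -1.15, SE 0.14, adjusted p = 1.56e-09), in *Rfng*, the Radical fringe glycosyltransferase, from 46.2 ± 4.10 to 22.3 ± 1.81 (-1.05, SE 0.05, adjusted p = 2.1e-19), and in *Hes2*, a Hes-family repressor, from 1.04 ± 0.35 to 0.55 ± 0.23 (-0.93, SE 0.21, adjusted p = 0.000161), a call that library set 1 alone did not give. The Hey family therefore showed all 3 outcomes, with *Heyl* higher, *Hey2* lower and *Hey1* not called, under TMM, RLE, upper-quartile and library total scaling alike, although the sign of *Hey1* turned to 0.17 with library totals.

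In RGLS4326-treated against PBS-treated kidneys 1 of the 44 genes was higher and 7 were lower, beside 33.8% of all tested genes called (15.3% higher and 18.5% lower). The gene that rose was *Hey2*. Its level ran from 0.88 through 1.40 to 2.37 CPM in PBS mice and from 1.71 through 2.47 to 3.34 in RGLS4326-treated mice, against 2.96, 3.48 and 3.98 in UNT mice. All 11 RGLS4326-treated mice were above the PBS mean and 6 were above every PBS mouse, and the log2 fold change was 0.65 (SE 0.14, adjusted p = 0.00287). Its range over all alternatives was 0.50 to 0.74, and it was called in 10 of 14 of them, all but the 3 fits of a library set alone and the fit with the share of reads outside genes. *Hey2* stayed below UNT, by a log2 fold change of -0.51 (adjusted p = 0.000997). Of the genes that fell, *Hes6*, a Hes-family protein known to counteract *Hes1*, went from 33.9 ± 5.72 to 25.1 ± 3.51 CPM (log2 fold change -0.43, SE 0.08, adjusted p = 0.00142), below the 38.3 ± 4.06 of UNT kidneys. *Neurl1a* fell from 18.1 ± 4.29 to 13.8 ± 1.81 (-0.39, SE 0.12, adjusted p = 0.0145) and remained above UNT in every mouse. *Hes6* and *Neurl1a* lost these calls in the same 4 alternatives as *Hey2*. *Dlk1*, a non-canonical ligand, had the largest value (-2.09, SE 0.57, adjusted p = 0.00873), but its medians were 0.43 CPM in PBS and 0.44 in RGLS4326-treated mice. The difference came from PBS replicates 2 and 11, at 11.1 and 8.07 CPM, and it was called in only 7 of 14 alternatives.

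With the exon length trend taken out of each library 1 of the 44 genes was higher and 10 were lower, beside 1878 higher and 2632 lower of the 14828 genes in that fit. With the share of reads outside genes as a covariate 0 were called, beside only 89 of all 15644 tested genes. Against UNT kidneys 26 of the 44 genes were higher and 10 were lower in RGLS4326-treated kidneys, beside 77.7% of all tested genes called (40.8% higher and 36.9% lower), and with library totals alone 33 and 5, beside 9148 and 3471 of all tested genes. *Neurl1a*, *Dtx4* and *Numbl* were again the highest, by log2 fold changes of 3.32, 2.58 and 1.69. *Dlk1* (-1.75), *Rfng* (-1.10) and the γ-secretase subunit gene *Aph1c* (-0.83) were the lowest, and *Dlk1* was not called in library sets 1 and 3 alone. *Rbpj* was 0.72 higher than in UNT kidneys (adjusted p = 1.08e-13) and did not differ by more than its error from PBS-treated kidneys (0.07, interval -0.05 to 0.18 at 2 SE).

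**Figure D4:**
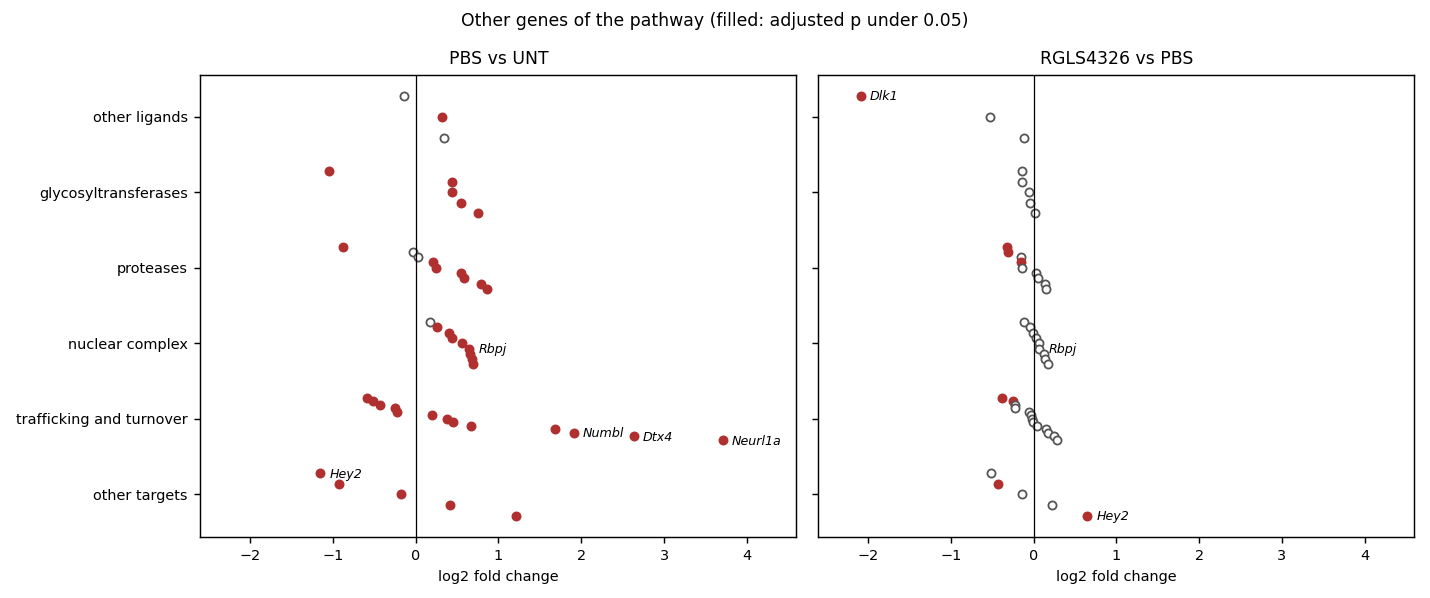
Log2 fold change (horizontal axes) of the 44 tested genes of the 6 further pathway lists in PBS-treated against UNT (left) and RGLS4326-treated against PBS-treated kidneys (right); each point is a gene, and filled red points have an adjusted p under 0.05. On the left 29 genes are higher and 10 lower, led by *Neurl1a*, *Dtx4* and *Numbl*, and on the right *Hey2* is the only called gene above 0.

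Because several members are known from blood vessels, marker genes of vascular cells were set beside them. Counts of called markers stand beside the same shares of all tested genes as above, 43.1% higher and 39.0% lower in PBS-treated against UNT and 15.3% and 18.5% in RGLS4326-treated against PBS-treated kidneys. The 11 endothelial markers were all detected in every group. Of these, 2 were higher and 7 lower in PBS-treated than in UNT kidneys (median log2 fold change -0.48), and 8 were higher and 0 lower in RGLS4326-treated than in PBS-treated kidneys (median 0.22). Their summed level ran from 671 through 735 to 814 CPM in UNT, from 499 through 569 to 695 in PBS-treated and from 632 through 690 to 770 in RGLS4326-treated kidneys. The 2 that rose against UNT were *Cdh5* (0.50, adjusted p = 1.54e-06) and *Pecam1* (0.30, adjusted p = 0.000216). *Erg* (0.18) and *Gja5* (0.08) were not called there. These genes, too, are named after their values were seen. The called changes of *Notch4* in both comparisons went the way of most of this list, but against UNT not that of *Cdh5* and *Pecam1*. *Dll4*, also mainly endothelial, was higher in PBS-treated than in UNT kidneys. Of the 9 pericyte and smooth muscle markers 7 were higher and 1 was lower in PBS-treated than in UNT kidneys (median 1.11), and 1 was higher and 1 lower after RGLS4326 (median 0.02). Their summed level ran from 391 through 477 to 610 CPM in UNT, from 1067 through 1343 to 1761 in PBS-treated and from 1130 through 1365 to 1546 in RGLS4326-treated kidneys. Within this list *Myh11* was the gene that fell against UNT (-0.48) and *Rgs5* was not called (0.07), while after RGLS4326 *Rgs5* was higher (0.84, adjusted p = 0.000934) and *Des* was lower (-0.33, adjusted p = 0.0133); these 3 genes are named for being the exceptions, after their values were seen. *Notch3* and *Heyl* were higher than UNT in both *Pkd2*-KO groups and were not called between them. The 7 fibroblast markers were likewise all higher than UNT in both groups, and 1 of them was called, higher, between the groups. The part of such markers in the changes of the members was not tested.

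**Figure D5:**
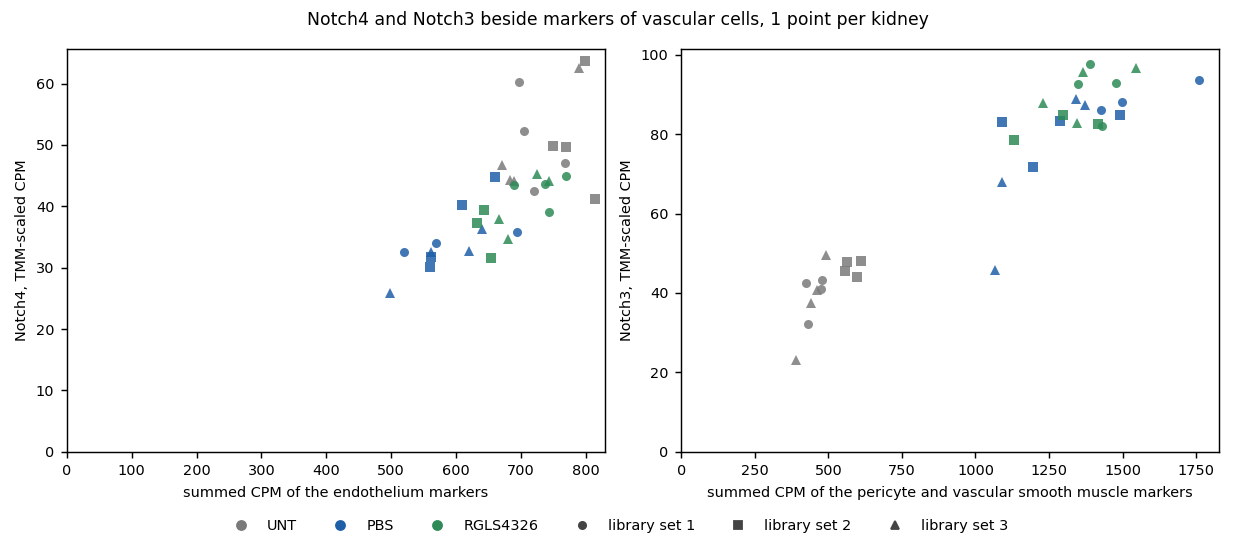
Left, *Notch4* (vertical axis, TMM-scaled CPM) beside the summed CPM of 11 endothelial markers; right, *Notch3* beside the summed CPM of 9 pericyte and vascular smooth muscle markers, 1 point per kidney with colours for UNT, PBS-treated and RGLS4326-treated mice and shapes for library sets. PBS-treated kidneys lie mostly lowest on both axes at left, and UNT kidneys lie apart at the lower left of the right panel.

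Markers of other kidney cells also moved in PBS-treated against UNT kidneys, where 82.1% of all tested genes were called. All 8 proximal tubule markers were lower (median log2 fold change -2.64) and all 7 principal cell markers higher (1.27), as were all 8 markers of injured tubules (3.99), all 7 fibroblast markers (2.11), 7 of 8 leukocyte markers (3.34) and all 6 proliferation markers (0.64). In the lists for thick ascending limb, intercalated cells and podocytes, with 6 markers each, 5 were lower and 1 was higher. In RGLS4326-treated against PBS-treated kidneys, where 33.8% of all tested genes were called, 5 proximal tubule markers and 5 podocyte markers were higher and none lower, and 5 principal cell, 4 injured tubule and 3 leukocyte markers were lower and none higher. Of the thick ascending limb markers 4 were higher and 1 was lower, 1 intercalated cell marker was lower, and 1 fibroblast and 1 proliferation marker were higher. *Hes1* was lower in that comparison as well. The summed level of the principal cell markers ran from 646 through 814 to 1035 CPM in UNT, from 1130 through 1882 to 2651 in PBS-treated and from 593 through 1094 to 2337 in RGLS4326-treated kidneys. That of the injured tubule markers ran from 208 through 264 to 337 CPM, from 2007 through 2716 to 4266 and from 1151 through 1999 to 2879 in the same order. No marker was at 0 in any group, and the part of these cells in the levels of *Hes1* was not tested.

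*Lcn2* encodes NGAL, a protein released by injured tubules, and was used to ask whether members followed kidney injury among mice of 1 group. Its mean level was 3.52 CPM in the UNT group (SD 0.88), 1061 in the PBS group (SD 396) and 611 in the RGLS4326 group (SD 219.6). Over 20 relations of log2(CPM + 1), 10 in each *Pkd2*-KO group of 11 mice, *Notch2* rose with *Lcn2* in RGLS4326-treated mice (Pearson's r = 0.86, permutation p = 0.00154, adjusted p = 0.0308; Spearman's rho = 0.70, permutation p = 0.0212, adjusted p = 0.106). *Jag1* fell with it in the same mice (r = -0.78, permutation p = 0.00406, adjusted p = 0.0406; rho = -0.80, permutation p = 0.00471, adjusted p = 0.0942). Without the 2 mice farthest from the median of *Lcn2*, r was 0.78 for *Notch2* (adjusted permutation p = 0.169) and -0.69 for *Jag1* (adjusted permutation p = 0.174), so neither held after adjustment. After centring on the library sets r was 0.91 for *Notch2* (adjusted permutation p = 0.003) and -0.73 for *Jag1* (adjusted permutation p = 0.109). With library totals alone r was 0.44 for *Notch2* and -0.75 for *Jag1*, and 0 of the 20 relations passed adjustment. In PBS-treated mice the strongest relation was that of *Notch4* (r = -0.66, permutation p = 0.0246, adjusted p = 0.123; rho = -0.73, permutation p = 0.0145, adjusted p = 0.0965), which did not pass. Without PBS replicate 9, a setting added after the data were seen, the r of *Notch1* in PBS-treated mice went from -0.01 to 0.57 (adjusted permutation p = 0.313).

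For each member the most similar genes were found by Pearson's r of log2(CPM + 1) over the 34 mice after the group means were removed. *Notch3* was closest to *Hspg2*, which encodes the basement membrane proteoglycan perlecan (r = 0.93, Spearman's rho = 0.84), and then to *Abl1* and *Gpr124* (both r = 0.88). *Notch1* was closest to *Pkd1*, the other gene of dominant polycystic kidney disease (r = 0.91, rho = 0.66), then to *9830001H06Rik* (0.89) and *Arid1a* (0.88). *Notch2* was closest to *Fat1*, a giant protocadherin (r = 0.87, rho = 0.71), *Ubr4* (0.84) and *Tnrc18* (0.83), and *Notch4* to *Tacc1* (r = 0.82, rho = 0.83), *Tns1* (0.80) and *Mcf2l* (0.78). The genes most like a receptor were long, with a median of 13534 exon bases over the 10 with a known length against 4274 for all tested genes. Those most like a ligand had a median of 6238 and those most like a target 3730. Among the ligands *Jag1* was closest to *Yeats2* (r = 0.85), *Usp42* (0.84) and *Dido1* (0.84), *Jag2* to *Scarf2*, *Tead3* (both 0.76) and *Skiv2l* (0.74), and *Dll4* to *Ppm1f* (0.78), *Zfp747* (0.76) and *Rps6ka2* (0.75). Among the targets *Heyl* was closest to *Clip2* (r = 0.85), *Aplnr*, the apelin receptor (0.84), and *Fgd1* (0.82). *Hey1* was closest to *Syt13* (0.69), *Fgd5* (0.67) and *Cav1*, which encodes caveolin (0.65), and *Hes1* to *Gal3st1* (0.69), *Apitd1* (0.66) and *Rpp21* (0.66). Of these 30 pairs 12 remained among the closest when PBS replicate 9 and UNT replicate 10 were left out, a setting added after the data were seen. None of the pairs of *Notch4*, *Jag1* or *Jag2* was among those that remained. Over all 34 mice, 11 pairs remained when levels were centred on the library sets as well as the groups. *Hspg2*, *Fat1*, *Ppm1f* and *Syt13* stayed in first place without those 2 mice, with r of 0.85, 0.75, 0.76 and 0.67.

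Windows from 250 bases before to 50 bases after the gene start (RefSeq, GRCm38.p6) were given for *Notch1*, *Notch2*, *Notch3*, *Notch4*, *Jag1*, *Jag2* and *Dll4*. None was given for the targets *Hes1*, *Hey1* and *Heyl*, so their promoters were not searched. The core motif of RBPJ, searched as TGGGAA on both strands, was in 0 of these 7 windows and in 25.6% of all 32851 windows of this length.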

How the data were processed

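Whole-kidney polyadenylated RNA of 34 mice was measured by RNA sequencing. The authors prepared TruSeq stranded mRNA libraries, sequenced paired ends on a NextSeq 500, trimmed with Trim Galore, mapped with STAR to GRCm38 (mm10) and counted reads per gene with HTSeq (version 0.6.1 in the submitters' processing notes). Each of the 34 deposited tables gives unnormalized read counts of a mouse by gene symbol, and the counter's summary rows at its end were left out. Which annotation and strand setting HTSeq used is not given in the sources used here. No 2 tables were identical (0 identical pairs).

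Counts were tested with the two-sided quasi-likelihood (QL) F-test in edgeR 4.0.16 under R 4.3.3 after TMM scaling and filterByExpr, in 1 fit of all 34 libraries with 3 groups and no covariate. Adjusted p is the Benjamini-Hochberg value over all 15644 tested genes, and a gene was called at an adjusted p under 0.05. Intervals are 2 SE on either side. Relations with *Lcn2* were tested by two-sided permutation with 100000 resamples and adjusted over 20 relations. Alternatives used other scalings, no filter, DESeq2 1.42.0, limma-voom (limma 3.58.1), library sets, a replicate block, a covariate and left-out libraries. The exon length trend was a lowess line per library, taken out through offsets over the 14828 tested genes found in the annotation. Exon lengths, 3′UTRs and coordinates came from the GENCODE annotation of GRCm38. Figures were drawn with matplotlib 3.10.9.

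All 10 members are named, with *Lcn2*, *Pkd2*, *Rbpj*, the 3 called genes of the pathway lists with the largest change in each direction, and the 3 genes most like each member. The members and all gene lists were chosen with earlier results of these data known. Replicate numbers of the labels did not pair mice across groups. How far differences between mice and counting error each set the precision of these values was not measured. A result on 1 gene of the pathway lists is not reported here.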

Additional observations from a re-analysis of the deposited data

How the results depend on the processing

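The calls of *Notch1*, *Notch2*, *Notch3*, *Notch4*, *Heyl* and *Hes1* in PBS-treated against UNT kidneys kept their direction and passed the test under every alternative run, whereas both treatment calls did not. *Jag1* lost that call in set 3 alone and *Dll4* in set 2 alone, and against UNT kidneys *Dll4* and *Hes1* lost theirs in set 2 alone after RGLS4326, at 0.12 and 0.24, and *Notch4* lost its own in set 3 alone and with library totals, at -0.29 and -0.0247. In RGLS4326-treated against PBS-treated kidneys 2 members were called, against 0 within library set 1, 1 within set 2 (*Jag1*, neither of those 2), 0 within set 3 (where edgeR called 54, 4065 and 0 of all genes), 0 with the share of reads outside genes as a covariate and 0 with the exon length trend taken out (a setting chosen after the data were seen), and 1 to 2 with a library left out. Of the further pathway genes 8 were called, against 0, 5 and 0 within the 3 library sets and 0 with the covariate, a fit that called 89 of all 15644 tested genes. With a library left out 6 to 13 were called (13 without PBS replicate 5), beside 4023 to 6209 of all tested genes (6209 also without PBS replicate 5). Against UNT kidneys set 3 alone called 23 in place of 36, beside 8743 of all 15676 tested genes in place of 12157 of 15644. With the replicate block 8, 2 and 8 members and 39, 7 and 37 further pathway genes were called, beside 12773, 5102 and 12157 of all 15635 tested genes. Same-numbered libraries correlated from -0.33 to 0.41, and 3 of 33 libraries correlated best with their own number. Relations with *Lcn2* that passed numbered 2, against 0 with library totals, 1 after centring on library sets, 0 without the 2 farthest mice and 0 by Spearman's rho. Of the 30 closest pairs 11 were kept after centring on library sets and 12 without PBS replicate 9 and UNT replicate 10.

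The reversed log2 fold changes were of genes not called in that comparison, or of *Notch4* in RGLS4326-treated against PBS-treated kidneys, at -0.0123 in set 2. In that comparison *Notch1* was at -0.18 in set 1, -0.0301 with the covariate, -0.13 without the length trend and -0.0009 to 0.0607 with a library left out; *Notch2* at -0.0158 in set 1, -0.0253 in set 2 and -0.0835 without the length trend; *Jag1* at -0.26 in set 1 and -0.14 with the covariate; *Jag2* at 0.0774 in set 3; and *Dll4* at 0.061 in set 2 and 0.0301 in set 3. In PBS-treated against UNT kidneys *Jag2* was at -0.0175 with relative log expression (RLE) scaling, -0.0274 without the filter, -0.0174 by DESeq2, -0.0743 in set 1, -0.17 in set 2, -0.0144 without the length trend and -0.0407 to 0.0401 with a library left out, and *Hey1* at 0.17 with library totals. In RGLS4326-treated against UNT kidneys *Jag2* was at 0.29 with library totals, 0.0107 by limma-voom, 0.35 in set 3, 0.0266 with the covariate and -0.0654 to 0.0154 with a library left out. *Hey1* was at 0.0028 with upper-quartile scaling, 0.30 with library totals, 0.0005 by limma-voom, 0.0249 with a library set term, 0.057 in set 1, 0.12 in set 3, 0.038 with the covariate and -0.0285 to 0.0406 with a library left out. The causes were not tested. At 35 to 136 counts per library *Hey1* is the member that depth limits most.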
